A study of Rattus norvegicus with 18 samples.

Results

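The genes described here are markers of hippocampal fields or of granule cells, or stood apart in the hippocampus of these rats, and were followed across brain regions and stress. The 9 genes are Prox1, Wfs1, Pou3f1, Fibcd1, Neurod6, Nrip3, Ldb2, Rem2 and Rerg. All probe sets whose only gene symbol was 1 of these names were taken, which gave 13 of the 31099 probe sets on the array and 9 of the 14218 gene symbols. They were selected on measured values: Wfs1, Pou3f1 and Ldb2 on the difference between stressed and handled hippocampus, and Prox1, Rem2, Rerg and Neurod6 on levels in the 3 regions of handled rats. These contrasts may also have chosen Fibcd1 and Nrip3. Values of both kinds are therefore described here without a test. Of the 13 probe sets, 12 passed a filter on low intensity, and a second probe set of Prox1 did not. The probe set of Fibcd1 and the dimmer one of Rem2, 2 of the 12, passed only through their hippocampal arrays, so that those had to be high there.

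Total RNA of rat amygdala, hippocampus and cortex was hybridised to 18 Affymetrix arrays. The 6 groups were the amygdala, the hippocampus and the cortex of rats under Chronic Immobilization Stress, and the same regions of handled rats that were not stressed, with 3 arrays in each. The labels give no strain, sex, age or schedule of immobilization, and do not tell if replicate arrays hold RNA of different animals, so the p-values measure the spread between arrays, which may be technical. One label field names the amygdala for all 18 arrays, and region was taken from the titles and descriptions.

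The hippocampus holds a line of pyramidal cell fields, CA1, CA2 and CA3, and the dentate gyrus, whose small granule cells send their axons to CA3. Each field keeps its own set of transcription factors, receptors and matrix proteins, so that its transcripts can be read as markers in RNA of the whole structure. In such bulk RNA, fewer cells of a type and less RNA per cell cannot be told apart. Prox1 is a homeodomain transcription factor needed by granule cells. Wfs1, an endoplasmic reticulum protein, Pou3f1, a POU domain transcription factor, and Fibcd1, a membrane receptor for acetylated groups, mark CA1 in rodents, and Neurod6 is a basic helix-loop-helix factor of pyramidal cells. Ldb2 is a cofactor of LIM domain transcription factors, Nrip3 belongs to a group named for nuclear receptor interaction, and Rem2 and Rerg are small GTPases of the Ras superfamily. No field was assigned to the last 4.

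Intensities are on the authors' linear scale, on which every array had the same trimmed mean, and log2 differences were taken after adding 16. A level of 1 probe set cannot be set against that of another, so comparisons are of 1 probe set between arrays. The array medians lay between 49.1 and 56.4, and each array's rank correlation (Spearman) with its replicates averaged between 0.934 and 0.969.

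The handled arrays had a part in choosing the genes, so their regional values are given as a description of how far the genes were hippocampal. By non-overlapping arrays, 6 of the 9 genes were higher in the hippocampus than in both other regions, as measured at the brightest probe set of each. These were Prox1, Fibcd1, Neurod6, Nrip3, Rem2 and Rerg. Of the 18625 probe sets that passed the filter, 18.9% did not overlap and were higher in handled hippocampus than in handled cortex, and 18.7% than in handled amygdala. Nothing is read from the members' share, since 4 of the 6 were selected on these levels and Fibcd1 passed the filter only through hippocampus. Wfs1 and Ldb2 were lower in the hippocampus than in either region, where 20.5% of all probe sets were lower than in cortex and 20.9% than in amygdala without overlap, and Pou3f1 overlapped between hippocampus and cortex while lying far above amygdala. Genes that mark CA1 within the hippocampus were thus not all hippocampal genes when whole regions were compared.

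Prox1 had intensities of 648, 668 and 669 in the 3 stressed hippocampi and of 617, 588 and 606 in the 3 handled ones. All 3 stressed arrays lay above the handled ones, by a ratio of 1.10. On the log2 scale the difference was 0.13 ± 0.09 (SE, n = 3 per group). Its 95% interval reached from -0.06 to 0.32. In amygdala Prox1 measured 107 ± 1.51 after stress and 102 ± 6.82 after handling, and in cortex 74.0 ± 5.29 after stress and 75.7 ± 5.71 after handling (SD, n = 3). The dimmer Prox1 probe set, below the filter, averaged 20.8 ± 3.72 in stressed hippocampus and 30.5 ± 9.92 in handled hippocampus, and its groups overlapped.

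Wfs1 had intensities of 100.4, 119.7 and 113 in stressed hippocampi, against 194, 198 and 184 in handled ones. Every stressed array was thus well below every handled array, and the ratio of means was 0.578. On the log2 scale the difference was -0.71 ± 0.10 (SE, n = 3 per group). In the handled arrays the hippocampus had the lowest Wfs1 of the regions, with log2 differences of -0.53 ± 0.10 from cortex and -0.69 ± 0.10 from amygdala (SE).

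Pou3f1 had 90.5, 82.6 and 90.5 in stressed hippocampi and 172, 177 and 218 in handled ones. The groups did not overlap, and the ratio of means was 0.465. The log2 difference was -0.97 ± 0.14 (SE, n = 3 per group), the largest of the 12 probe sets. In handled rats its hippocampal level was 0.19 ± 0.14 above that of cortex, where the groups overlapped, and 2.15 ± 0.14 above that of amygdala.

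The remaining pyramidal cell members differed little. Fibcd1 measured 88.8, 86.8 and 82.3 in stressed hippocampi and 106, 92.0 and 83.0 in handled ones, which overlapped, with a log2 difference of -0.10 ± 0.28 (SE). Neurod6 measured 2891, 2618 and 2694 in stressed hippocampi and 2834, 2771 and 2699 in handled ones, with a log2 difference of -0.02 ± 0.08 (SE). Its groups overlapped too. The CA1 markers Wfs1 and Pou3f1 were therefore lower in stressed hippocampi, while Fibcd1 and Neurod6 stayed within the spread of the arrays.

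Ldb2 had 39.1, 37.8 and 31.1 in stressed hippocampi and 82.3, 75.7 and 68.4 in handled ones, with no overlap. The ratio of means was 0.477 and the log2 difference -0.82 ± 0.12 (SE, n = 3 per group). In handled rats its log2 difference between hippocampus and cortex was -2.49 ± 0.12, so the hippocampus was the region with the least Ldb2.

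The genes of no assigned field that were hippocampal in the handled arrays did not show a like decrease. The brightest Nrip3 probe set had 3276, 3373 and 3214 in stressed hippocampi and 3175, 2929 and 3105 in handled ones, with no overlap and a log2 difference of 0.10 ± 0.06 (SE). The other 2 probe sets of Nrip3 gave 0.04 ± 0.10 and 0.01 ± 0.16 on the log2 scale, and both overlapped. At its brighter probe set Rem2 had 256, 291 and 291 in stressed hippocampi and 304, 277 and 253 in handled ones, which overlapped, with a log2 difference of 0.01 ± 0.19. At its dimmer probe set it had 109, 106 and 99.8 in stressed hippocampi and 75.0, 64.4 and 84.5 in handled ones, all stressed above all handled, with a log2 difference of 0.42 ± 0.26. Rerg had 669, 611 and 605 in stressed hippocampi and 629.7, 546 and 582 in handled ones, with a log2 difference of 0.10 ± 0.11 and overlapping groups.

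Counted over the 12 probe sets, 3 were lower and 3 higher with no overlap between stressed and handled hippocampi. Across all 18625 probe sets 14.2% did not overlap, 7.06% being lower and 7.12% higher. The members were chosen with this contrast known, so nothing is read from their share. The median difference was 0.0084 for the 12 probe sets and 0.0031 for all probe sets. Of the 3 lower genes, Wfs1 and Ldb2 had lower levels in handled hippocampus than in handled cortex. Pou3f1 overlapped between these regions, at 0.19 ± 0.14 (log2, SE) above cortex. The 6 genes that were higher in handled hippocampus than in both regions had stress differences between -0.10 and 0.13 at their brightest probe sets. Wfs1, Pou3f1 and Ldb2 were chosen on the stress difference, and Prox1, Rem2, Rerg and Neurod6 on handled levels. The choice could by itself give this split, so nothing is read from it.

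**Figure D1:**
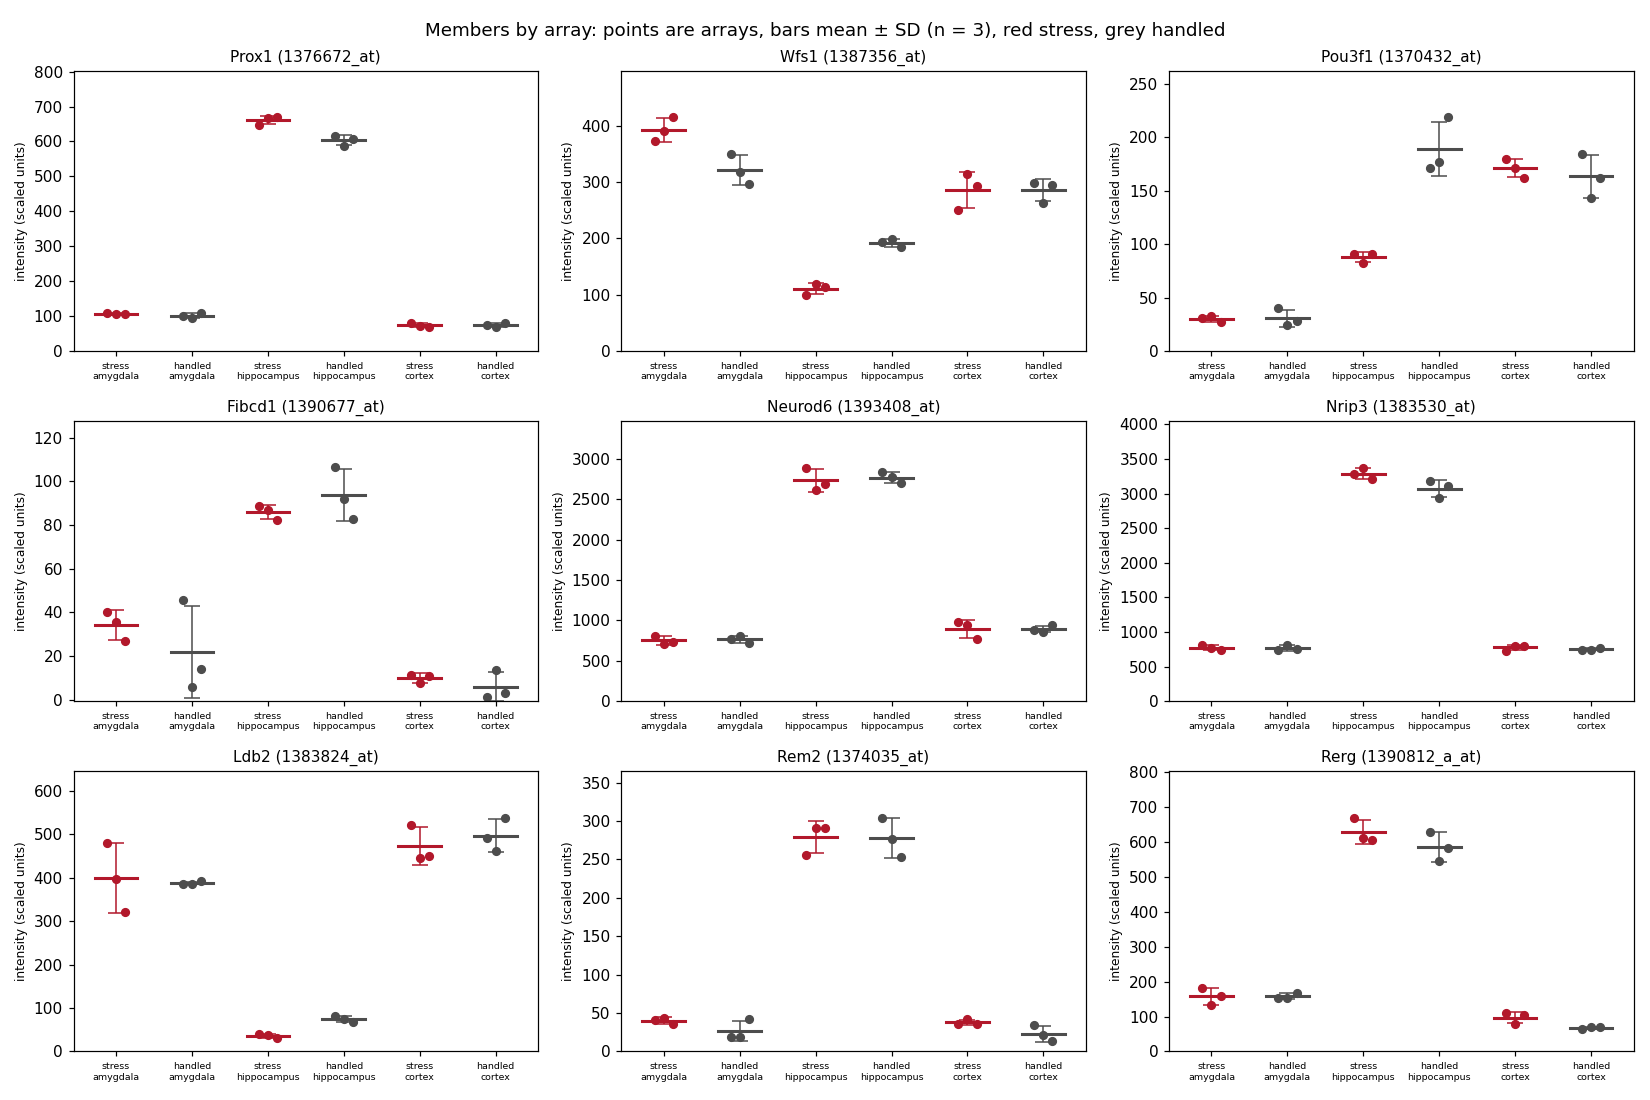
Intensity (authors' scaled linear units) of the brightest probe set of each of the 9 genes, by region and treatment, with stressed arrays in red to the left of handled arrays in grey; points are arrays and bars the mean ± SD (n = 3). In the hippocampus Wfs1, Pou3f1 and Ldb2 are lower in all 3 stressed arrays, and Neurod6 lies between 2618 and 2891 in both groups.

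RefSeq upstream sequence of build GRCr8 (250 bases before the gene start) was at hand for 4 of the 9 members, Wfs1, Fibcd1, Neurod6 and Rem2. The 3 pyramidal cell members among them are printed because Wfs1 was lower in the stressed hippocampus while Fibcd1 and Neurod6 were not. Capitals mark the GC box CCGCCC, the E-box CAGATG of the NeuroD type and the cyclic AMP response element TGACGTCA, each searched on both strands, together with the octamer ATGCAAAT and the half-site TGTTCT of the glucocorticoid receptor element, which were not found in these 4.
Wfs1, chr14:78034955-78035204, plus strand: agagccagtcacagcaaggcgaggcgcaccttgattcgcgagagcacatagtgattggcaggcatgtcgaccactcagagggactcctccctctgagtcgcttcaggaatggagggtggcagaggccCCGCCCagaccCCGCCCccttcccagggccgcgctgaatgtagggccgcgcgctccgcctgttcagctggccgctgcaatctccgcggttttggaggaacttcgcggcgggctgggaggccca
Fibcd1, chr3:35524143-35524392, minus strand: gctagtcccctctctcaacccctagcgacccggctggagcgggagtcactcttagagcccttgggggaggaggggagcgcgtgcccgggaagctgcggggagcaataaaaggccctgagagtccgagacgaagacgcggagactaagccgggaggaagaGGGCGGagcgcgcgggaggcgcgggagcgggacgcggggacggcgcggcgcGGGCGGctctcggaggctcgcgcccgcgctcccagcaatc
Neurod6, chr4:86180156-86180405, minus strand: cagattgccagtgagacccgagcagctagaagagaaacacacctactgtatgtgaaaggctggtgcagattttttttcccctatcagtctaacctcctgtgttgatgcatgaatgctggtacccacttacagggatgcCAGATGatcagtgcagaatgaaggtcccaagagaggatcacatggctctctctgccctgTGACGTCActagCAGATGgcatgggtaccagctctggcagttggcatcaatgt
Wfs1 held 2 GC boxes, at 123 and 112 bases before the start, and Fibcd1 held 2, at 91 and 40 bases. Neurod6 held 2 E-boxes, at 112 and 41 bases, and 1 response element, at 53 bases. No 2 matches overlapped. Their GC content was 66% for Wfs1, 72% for Fibcd1 and 50% for Neurod6, against a median of 51.2% over all upstream sequences. GC boxes occurred in 30.5% of the 33469 upstream sequences, CAGATG in 14%, TGACGTCA in 1.59%, ATGCAAAT in 1.56% and TGTTCT in 17.5%. Wfs1 and Fibcd1 both held the GC box, and the part of any motif in the hippocampal values was not tested. These matches are descriptions of letters in the window.

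The pyramidal members were also set against Prox1 within each array, as the mean log2 of Wfs1, Pou3f1, Fibcd1 and Neurod6 minus the log2 of Prox1. The value was -1.42, -1.48 and -1.48 in stressed hippocampi and -0.89, -0.86 and -0.89 in handled ones. The difference was -0.58 (-0.36 with all probe sets of each gene averaged), with standard deviations of 0.03 in stressed and 0.02 in handled hippocampi. Single genes against Prox1 differed by -1.10 for Pou3f1, -0.84 for Wfs1, -0.23 for Fibcd1 and -0.15 for Neurod6. In amygdala the mean value was 0.41 ± 0.06 after stress and 0.28 ± 0.28 after handling, and in cortex 1.09 ± 0.06 after stress and 0.97 ± 0.12 after handling (SD, n = 3). The hippocampal difference rests on the contrast by which the genes were chosen.

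**Figure D2:**
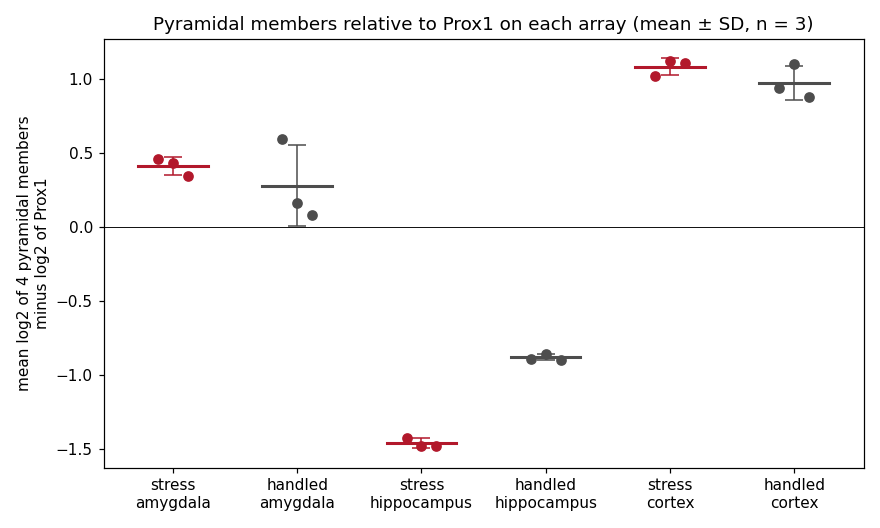
Mean log2 intensity of the 4 pyramidal cell members minus that of Prox1, for every array and region, stressed arrays left of handled ones. The 3 stressed hippocampi lie between -1.48 and -1.42 and the 3 handled ones between -0.89 and -0.86.

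The stress contrasts of amygdala and cortex are not known to have had a part in the choice of genes and were tested. In amygdala, limma called 0 of 12 probe sets at a threshold of 0.05 on the adjusted p, where it called 2.4% of all 18625, 0.456% being higher and 1.94% lower. At an unadjusted p under 0.05, 2 of the 12 passed, against 13.7% of all. Wfs1 had 373, 390.0 and 414 in stressed amygdala and 349.7, 317 and 296 in handled amygdala. Here all stressed arrays lay above all handled arrays, with a log2 difference of 0.28 ± 0.10 and an adjusted p of 0.156 (limma). Its 95% interval was 0.08 to 0.48. It was the 1 of 12 probe sets higher without overlap, against 8.13% of all.

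Pou3f1 and Ldb2, which were lower in the stressed hippocampus, had amygdala differences of 0.01 ± 0.14 (95% interval -0.28 to 0.30) and 0.02 ± 0.12 (95% interval -0.22 to 0.26). Prox1 differed by 0.07 ± 0.09 with an adjusted p of 0.802 (limma). The brighter Rem2 probe set differed by 0.44 ± 0.19, with an adjusted p of 0.301 (limma), and its arrays overlapped. Fibcd1, dim in this region, differed by 0.53 ± 0.28, with an adjusted p of 0.412 (limma).

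In cortex limma called 0 of 12 probe sets, where it called 0.403% of all 18625. At an unadjusted p under 0.05, 3 of the 12 passed, against 10.2% of all. The second Nrip3 probe set had 289, 255 and 284 in stressed cortex and 187, 217 and 207 in handled cortex, a log2 difference of 0.41 ± 0.10 with an adjusted p of 0.0796 (limma). The other Nrip3 probe sets overlapped between stressed and handled cortex. Rerg had 109, 77.7 and 105 in stressed cortex and 63.6, 70.4 and 68.7 in handled cortex, a difference of 0.43 ± 0.11 with an adjusted p of 0.116 (limma). The brighter Rem2 probe set differed by 0.50 ± 0.19, with an adjusted p of 0.336 (limma). These 3 probe sets were higher in every stressed array without overlap, as were 12.1% of all.

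Wfs1 in cortex gave 251, 314 and 293 after stress and 297, 263 and 295 after handling, a difference of 0.00 ± 0.10 with a 95% interval from -0.20 to 0.20. Pou3f1 differed by 0.07 ± 0.14 and Ldb2 by -0.07 ± 0.12. Their 95% intervals were -0.22 to 0.36 and -0.31 to 0.17. Neurod6 differed by 0.00 ± 0.08 and Prox1 by -0.03 ± 0.09. The difference between regions in the stress effect was not tested for these genes, since the hippocampal contrast had chosen them. Striatal markers summed to 4947 to 5181 in stressed and 3852 to 4211 in handled amygdala, with 2 of 9 called higher, where 0.456% of all probe sets were called higher. The hexokinase 3′ excess over 5′ (a sign of RNA quality, log2) was 1.40 ± 0.07 in stressed and 0.91 ± 0.08 in handled amygdala. For beta-actin the excess was 2.16 ± 0.24 in stressed and 2.08 ± 0.08 in handled amygdala. For Gapdh it was 0.45 ± 0.08 in stressed and 0.45 ± 0.04 in handled amygdala (SD, n = 3). Meningeal markers were called lower for 7 of 9 in stressed cortex, where 0.268% of all probe sets were called lower. They summed to 2042 to 2153 in stressed and 4703 to 4961 in handled cortex. Their part in the amygdala and cortex values was not tested.

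**Figure D3:**
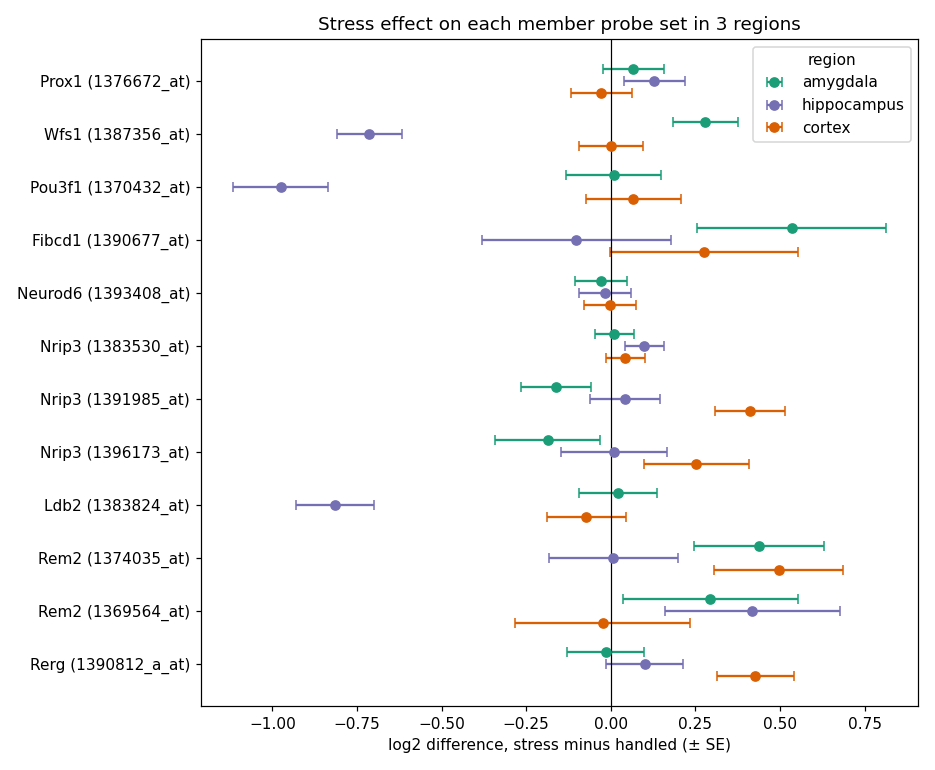
Log2 difference between stressed and handled arrays for the 12 member probe sets in amygdala, hippocampus and cortex, with bars of ± 1 SE from limma. Ldb2, Wfs1 and Pou3f1 lie between -0.97 and -0.71 in the hippocampus and between -0.07 and 0.28 in amygdala and cortex.

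Levels were also compared between regions in the stressed arrays, of which amygdala and cortex share no array with the contrasts that chose the genes. Between stressed amygdala and stressed cortex, limma called 8 of 12 probe sets, 4 higher and 4 lower, against 19.8% of all, 9.68% being higher and 10.1% lower. Prox1, Rem2, Rerg and Neurod6 were selected on levels in the same regions of handled rats. Handled amygdala minus handled cortex was -1.95 for Pou3f1, 1.06 for Rerg, 0.69 for Fibcd1, 0.36 for Prox1, 0.16 for Wfs1 and -0.22 for Neurod6. It was 0.02 and -0.09 at the dimmer Nrip3 probe sets. Calls of the selected genes were therefore likely beforehand, and nothing is read from the share. Pou3f1 had 31.4, 32.5 and 27.3 in stressed amygdala and 179.9, 171 and 162 in stressed cortex, a log2 difference of -2.01 ± 0.14 with an adjusted p of 7.17e-10. Amygdala was thus the region of lowest Pou3f1. Prox1 was higher in amygdala than in cortex by 0.46 ± 0.09 (adjusted p = 0.000963, limma) and Wfs1 by 0.44 ± 0.10 (adjusted p = 0.00233). Rerg was higher by 0.62 ± 0.11 (adjusted p = 0.000482, limma) and Fibcd1 by 0.95 ± 0.28 (adjusted p = 0.0194). Fibcd1 was dim in both regions, with 40.4, 35.6 and 26.9 in stressed amygdala and 11.5, 7.54 and 11.1 in stressed cortex. The cortex values lay below the intensity at the filter threshold, 30.1, and the amygdala values near it. Its probe set passed the filter only through hippocampus, so nothing is read from the size of this difference.

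Neurod6 was lower in stressed amygdala than in stressed cortex, by a log2 difference of -0.24 ± 0.08 (adjusted p = 0.0296, limma), although its arrays overlapped. Nrip3 was lower at its dimmer probe sets, at -0.56 ± 0.10 (adjusted p = 0.000518) and -0.53 ± 0.16 (adjusted p = 0.0186), but differed by 0.00 ± 0.06 at the brightest, with 808, 774 and 747 in amygdala and 731, 804 and 799 in cortex. The 3 probe sets of that gene therefore disagree between these regions, while across all 18 arrays they correlated at 0.97, 0.96 and 0.98. Ldb2 did not pass, at -0.25 ± 0.12 (adjusted p = 0.138). Without stress cortex replicate 2, the number called was 5, and Fibcd1, Neurod6 and the dimmest Nrip3 probe set no longer passed. The Neurod6 call was lost in 7 of 15 alternatives (adjusted p up to 0.175), that of the dimmest Nrip3 probe set in 3 of 15 (up to 0.0685) and that of Fibcd1 in 2 of 12 (up to 0.0684), among them without stress cortex replicate 1 and without each stress amygdala replicate. Ldb2 passed in 2 of 15, with median centring and without stress amygdala replicate 1 (lowest adjusted p 0.0232).

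The hippocampus was then set against the other regions in the stressed arrays, with tests for the 4 genes selected on handled arrays alone. Prox1, Neurod6, Rerg and the brighter Rem2 probe set, 4 of 4, passed as higher against cortex, where 12% of all probe sets passed as higher, and against amygdala, where 12.7% did. The genes were selected on levels in the same regions of handled rats. This outcome was therefore likely beforehand, and nothing is read from the share. The dimmer Rem2 probe set passed the filter only through hippocampus and so had to be higher there, and it is given as a value, 1.89 ± 0.26 over cortex and 1.80 ± 0.26 over amygdala. Prox1 exceeded stressed cortex by 2.91 ± 0.09 on the log2 scale (adjusted p = 9.18e-17, limma) and stressed amygdala by 2.46 ± 0.09 (adjusted p = 1.27e-15). Neurod6 exceeded them by 1.60 ± 0.08 and 1.84 ± 0.08, and Rerg by 2.52 ± 0.11 and 1.90 ± 0.11. The brighter Rem2 probe set exceeded them by 2.45 ± 0.19 and 2.40 ± 0.19, with adjusted p of 6.3e-10 and 9.77e-10. Wfs1 and Ldb2, given as values, had log2 differences of -1.25 and -3.23 between stressed hippocampus and stressed cortex.

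Further markers of each field were read in the hippocampus. These lists, and those of other cells below, were drawn up with earlier results of these data known. In the list of CA1 pyramidal cells, 6 of 10 genes were measured, and limma called 2 lower and none higher (4 at an unadjusted p under 0.05). Across all probe sets it called 0.36%, 0.258% lower and 0.102% higher, and 10.9% had an unadjusted p under 0.05. Ccn3, a matricellular protein, had 198, 239 and 203 in stressed hippocampi and 290.3, 331 and 336 in handled ones, all stressed below all handled. Its difference was -0.55 ± 0.08 (adjusted p = 0.00052). Pex5l, a partner of HCN channels, had 101, 90.0 and 121 in stressed hippocampi and 151, 173 and 177 in handled ones, again with no overlap, and differed by -0.62 ± 0.12 (adjusted p = 0.0211). Mpped1 measured 479 ± 34.7 in stressed and 622 ± 25.3 in handled hippocampi, with a difference of -0.37 ± 0.09 (adjusted p = 0.0701). Crym differed by -0.13 ± 0.05 (adjusted p = 0.385), Gpr83 by -0.02 ± 0.13 and Dcn by 0.15 ± 0.22. The Pex5l call was lost on leaving out stress hippocampus replicate 1 or 2 or handled hippocampus replicate 2 or 3, with median centring, without a variance trend and with only hippocampal arrays in the fit (adjusted p up to 0.156), so that it held in 8 of 15 alternatives. The Ccn3 call held in 14 of 15 and was lost with only hippocampal arrays (adjusted p 0.0828). The median of the 6 was -0.25. Handled hippocampus was below handled cortex for Ccn3 (-1.62), Mpped1 (-1.30), Crym (-0.78) and Pex5l (-0.37), as for Wfs1.

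The dentate granule cell list had 13 measured genes of 21, none of which limma called (3 at an unadjusted p under 0.05). Of these 7 were above 0 and 6 below, with a median of 0.0008. Values ran from -0.25 for Bcl11b, a zinc finger transcription factor, to 0.29 for Cyp7b1, a steroid hydroxylase, and Rfx3 differed by 0.20 ± 0.08 (adjusted p = 0.36). Dsp and Tdo2 of this list were among the genes not measured. Handled hippocampus was below handled cortex for Calb1 (-0.59), Pitpnm2 (-0.30), Stxbp6 (-0.14) and Rfx3 (-0.09), and above it for the others measured. The CA3 list had 9 measured genes of 10, again with none called (2 at an unadjusted p under 0.05) and a median of 0.07. Bok differed by 0.28 ± 0.11 (adjusted p = 0.344), Cpne4 by 0.25 ± 0.09 (adjusted p = 0.303) and Nectin3 by 0.17 ± 0.12 (adjusted p = 0.654). In this list handled hippocampus was below handled cortex for Ociad2 (-1.66) and Coch (-0.99), and above it for the others measured. The CA2 list had 5 measured genes of 7, none called (2 at an unadjusted p under 0.05), and a median of 0.08, with Amigo2 at 0.28 ± 0.13 (adjusted p = 0.434), Rgs14 at 0.23 ± 0.09 (adjusted p = 0.354) and Pcp4 at 0.08 ± 0.05 (adjusted p = 0.615). By summed intensity the CA1 list had 2312 to 2449 in stressed and 2769 to 2846 in handled hippocampi, and the CA3 list 4382 to 4732 in stressed and 4047 to 4170 in handled hippocampi. Crym and Mpped1, neither of them called, made up 1406 ± 65.1 and 479 ± 34.7 of the CA1 sum in stressed hippocampi. In handled hippocampi they made up 1539 ± 78.8 and 622 ± 25.3 (SD, n = 3). The sums overlapped for the dentate list, with 6325 to 6859 in stressed and 6578 to 6877 in handled hippocampi, and for the CA2 list, with 3046 to 3298 in stressed and 2948 to 3141 in handled hippocampi. The difference between lists was not tested.

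The CA1 calls were looked for in the other regions. Pex5l was called lower in stressed amygdala too, at -0.81 ± 0.12 (adjusted p = 0.000482), and Ccn3 was not (adjusted p = 0.972). Across all probe sets, 2.4% were called in amygdala, 1.94% being lower. The other calls in amygdala were Elavl2 of the CA3 list (-0.37 ± 0.07, adjusted p = 0.00245) and Pcp4 of the CA2 list (0.27 ± 0.05, adjusted p = 0.00298), and none was in the dentate list. In cortex limma called no gene of the 4 field lists, with 3 of the CA1 list, 2 of the dentate list and 1 of the CA3 list at an unadjusted p under 0.05, where 0.403% of all probe sets were called and 10.2% had such a p. The CA1 list sum was lower there too without overlap, with 5255 to 5405 in stressed and 5567 to 5761 in handled cortex. Crym made up 2363 ± 38.4 of it in stressed and 2660 ± 90.8 in handled cortex (SD, n = 3). Dcn, Mpped1 and Crym were lower in stressed cortex without overlap, at -0.91, -0.17 and -0.17, and Ccn3 was higher, at 0.21. In amygdala the CA1 sums overlapped, with 2533 to 2815 in stressed and 2695 to 2878 in handled arrays.

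**Figure D4:**
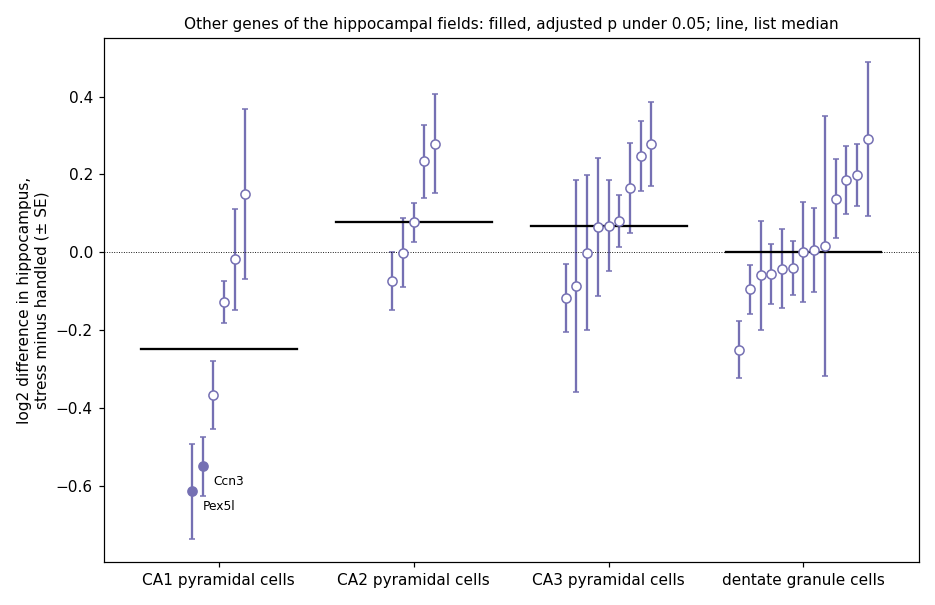
Log2 difference between stressed and handled hippocampi for each measured gene of the CA1, CA2, CA3 and dentate lists, with filled points for an adjusted p under 0.05 and a line at each median. Ccn3 and Pex5l are the filled points, in the CA1 list, whose median is -0.25.

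Markers of other cells moved in the same arrays. Of all probe sets in the hippocampus, limma called 0.258% lower and 0.102% higher, and 10.9% had an unadjusted p under 0.05. In the choroid plexus list Ttr, the thyroxine carrier, rose by 1.62 ± 0.14 (adjusted p = 4.65e-07, limma) and Sostdc1 by 0.92 ± 0.19 (adjusted p = 0.0307), with 4 of the 9 genes measured. The others measured were Folr1 at 0.20 ± 0.21 (adjusted p = 0.776) and Aqp1 at -0.58 ± 0.32 (adjusted p = 0.521). The list sum was 3508 to 3729 in stressed hippocampi against 1212 to 1329 in handled ones, of which Ttr made up 3410 ± 137 in stressed and 1102 ± 54.98 in handled hippocampi (SD, n = 3). In the oligodendrocyte list 13 of 13 genes were below 0 and 2 were called lower (10 at an unadjusted p under 0.05), Cldn11 at -0.30 ± 0.07 (adjusted p = 0.048) and Bcas1 at -0.30 ± 0.06 (adjusted p = 0.0382). Its sum was 20015 to 22285 in stressed and 23611 to 26252 in handled hippocampi. Of 9 meningeal genes, 1 was called, Ptgds, which fell by 0.35 ± 0.06 (adjusted p = 0.00538), and 4 had an unadjusted p under 0.05. The list had 5 genes below 0 and 4 above, from -0.64 for Col3a1 to 0.32 for Col1a1. Its sum was 1762 to 1850 in stressed and 2075 to 2249 in handled hippocampi, of which Ptgds made up 1204 ± 19.7 in stressed and 1535 ± 89.3 in handled hippocampi (SD, n = 3). In the hippocampus limma called no gene in the lists of neurons in general and astrocytes (2 each at an unadjusted p under 0.05), striatal neurons (1), microglia (0) and endothelial cells (0). The log2 excess of the 3′ over the 5′ hexokinase probe set, a sign of RNA quality, was 1.30 ± 0.18 in stressed and 1.12 ± 0.12 in handled hippocampi. For beta-actin the excess was 1.61 ± 0.31 in stressed and 1.55 ± 0.23 in handled hippocampi. For Gapdh it was 0.23 ± 0.13 in stressed and 0.26 ± 0.10 in handled hippocampi (SD, n = 3). A list of neocortex and subiculum genes, drawn up after values were seen, had a median of 0.03 and summed to 4353 to 4524 in stressed and 4332 to 4530 in handled hippocampi. Of its 19 measured genes limma called 0, with 5 at an unadjusted p under 0.05. The values ran from -0.81 to 0.52, with 10 above 0 and 9 below. Etv1 was lower without overlap, at -0.34 ± 0.08 (adjusted p = 0.0592, limma). Ccn2 was higher without overlap, at 0.36 ± 0.11 (adjusted p = 0.197, limma). The part of these lists and of RNA quality in the hippocampal differences of Wfs1, Pou3f1 and Ldb2 was not tested.

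Among the members, arrays of all groups together gave Pearson correlations with Prox1 of 0.99 for Nrip3, 0.97 for Rem2 and Rerg, 0.96 for Neurod6 and 0.90 for Fibcd1, and of -0.98 for Ldb2, -0.85 for Wfs1 and 0.21 for Pou3f1. Wfs1 and Ldb2 correlated at 0.90. These 18 points share their regions, and the values describe the regional pattern. Over the same arrays the genes most like Wfs1 were Bcr (0.95), Rasgrp2 (0.94), Cadps2, Prkcd and Garnl3 (0.93 each), with hippocampal stress differences of -0.28, -0.50, -0.49, -0.36 and -0.41. The 18 arrays hold the stressed and handled hippocampi, so these differences had a part in the ranking and nothing is read from their sign. Over the 9 handled arrays alone the genes most like Wfs1 were Pde2a, Akap9 and Wdr13 (0.99 each), Tbc1d8 and Pals1 (0.98 each), with differences of -0.05, 0.14, 0.16, 0.11 and 0.04. Those closest to Prox1 over 18 arrays were Slc24a2 (0.998), Rnf182 (0.995), Gpr155, Lhx9 and Lpl (0.994 each). Over the handled arrays they were Lpl, Arpc5 and Kctd12 (0.999 each), Slc24a2 and Cst6 (0.997 each).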

How the data were processed

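The deposited values are linear intensities, 1 per probe set and array, which the authors had scaled to a common trimmed mean (from the values themselves). The software behind them is not given in the sources used here. Probe sets were named from the platform annotation. Values were taken as log2(intensity + 16), and 18625 probe sets stayed after removal of those whose mean fell under the 40th percentile. The 6 group means were fitted over 18 arrays by limma (version 3.58.1, under R 4.3.3) using a variance trend, 12 residual and 10.2 prior degrees of freedom, and two-sided Benjamini-Hochberg adjustment over the 18625 probe sets at 0.05. The fit was tested on simulated data. A gene is given by its brightest probe set in lists. An exact permutation test of 3 against 3 arrays cannot go below a p of 0.1 and was not used. Intensities carry SDs and log2 differences SEs. The number of arrays limits precision. The members, lists and tests were chosen with earlier results of these data known. All members are named, with the 5 genes most correlated with Wfs1 and with Prox1, and in each field list the called genes and the 3 largest changes, to which the rest of the CA1 list was added. Same-numbered stressed and handled arrays did not deviate together (correlations from -0.032 to 0.005 within regions). Over all 45 pairs of arrays with 1 number, across regions too, correlations ran from -0.044 to 0.100, with 1 over 0.1, so the numbers were not taken to pair arrays.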

Additional observations from a re-analysis of the deposited data

Results flagged for a closer look

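The Wfs1 differences had opposite signs in a pair of regions, although the amygdala difference did not pass (adjusted p 0.156, limma, and called in none of 15 alternatives, adjusted p 0.127 to 0.431). In amygdala all 3 stressed arrays lay above all 3 handled arrays, with a log2 difference of 0.279, and in hippocampus all 3 stressed arrays lay below all 3 handled arrays, with -0.714. The difference between the regions was not tested, because the hippocampal contrast had a part in choosing the gene.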

How the results depend on the processing

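Over 15 alternatives, limma called no member in amygdala in any. Of 18 log2 differences that passed, 0 changed sign under an alternative. These 18 include the dimmer Rem2 probe set in hippocampus over cortex and over amygdala, which had to be higher there. Of 41 that did not pass or had no test, 17 changed sign under at least 1, such as Pou3f1 in amygdala (-0.09 to 0.15) and Wfs1 in cortex (-0.07 to 0.09). The dentate list median ran from -0.05 to 0.05. In cortex it called 1 member when only the cortex arrays were fitted (Nrip3, adjusted p = 0.016, with a range of 0.016 to 0.335 over alternatives), and 0 to 1 when each array was left out, the 1 being Rerg without stress cortex replicate 2 (adjusted p = 0.0408, with a range of 0.0408 to 0.478). Of 8 calls between stressed amygdala and cortex, 5 to 8 were made when arrays were left out, with 5 without stress cortex replicate 2 (Fibcd1, Neurod6 and a Nrip3 probe set not called). Between stressed hippocampus and cortex, and stressed hippocampus and amygdala, counted with the dimmer Rem2 probe set, 3 were called instead of 5 with the filter at the 60th percentile, which removes both Rem2 probe sets, and 4 to 5 when arrays were left out. Nothing is read from the calls of the dimmer Rem2 probe set, which passed the filter only through hippocampus. The CA1 list had 1 call with median centring, 1 without a variance trend, 0 with only the hippocampal arrays, and 1 to 2 when arrays were left out (Ccn3 alone without stress hippocampus replicates 1 or 2 or handled hippocampus replicates 2 or 3). The adjusted p ranged over alternatives from 0.000122 to 0.0828 for Ccn3 and from 0.0139 to 0.156 for Pex5l. The pyramidal minus Prox1 difference, -0.58, was -0.64 with an offset of 1, -0.46 with an offset of 64, -0.55 with quantile normalization, -0.36 with all probe sets averaged, -0.73 without Neurod6, -0.53 with Prox1, Rem2 and Rerg together, and -0.60 to -0.57 when arrays were left out. With the replicate number as a block, the counts were 0, 0, 8, 5, 5 and 2, those of 5 again with the dimmer Rem2 probe set. The difference was -0.58, and no call changed. Of all probe sets in the hippocampus, 67 were called in the main setting, 20 with only hippocampal arrays, 32 without a variance trend, 27 without stress hippocampus replicate 2, and 39 and 43 without handled hippocampus replicates 2 and 1. The amygdala count of 447 ranged from 189 to 536 over the alternatives, and the cortex count of 75 from 34 to 570, the highest with only the cortex arrays.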
